A study of Mus musculus with 1 sample.

Results

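Insulin-like growth factor (IGF) genes were examined in single cells of the mouse adrenal medulla. The set held 10 of the 32285 genes of the count matrix, picked by gene symbol. The list was chosen with earlier results of these data known. It comprised the ligand *Igf1*, the receptors *Igf1r*, *Igf2r* and *Insr*, and the binding proteins *Igfbp2*, *Igfbp3*, *Igfbp4*, *Igfbp5*, *Igfbp6* and *Igfbp7*. The cells came from untreated wild-type mice at postnatal day 15. The glands of 5 mice, 10 adrenals of both sexes, were pooled into 1 library for which 10000 viable cells were taken, so no value has a biological replicate and no test between samples was possible. The cortex had been trimmed away by hand before digestion, but many cortical cells remained.

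IGF1 and IGF2 are secreted peptides that act on growth and survival of many cell types through the IGF1 receptor, a tyrosine kinase closely related to the insulin receptor encoded by *Insr*. *Igf2r* encodes the mannose 6-phosphate receptor, which takes up IGF2 for degradation and sorts lysosomal enzymes. The IGF binding proteins are secreted carriers that hold IGFs in the circulation or the matrix and can either block or prolong their action. IGFBP7 binds IGFs weakly and is known mainly as a protein of vessels and of the extracellular matrix. In the adrenal gland IGFs are known as growth factors of cortical and chromaffin cells.

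Each unique molecular identifier (UMI) counts 1 transcript molecule read near its 3′ end. The matrix held 51421499 UMIs in 11214 barcodes, with a median of 3250 per barcode, and 10139 barcodes passed the filters. Of these, 8940 cells fell into 9 classes. They comprised 1673 adrenaline chromaffin-like, 379 noradrenaline chromaffin-like, 89 cycling chromaffin-like, 417 transitioning-like, 3396 cortex-like, 2151 endothelial-like, 570 immune-like, 88 fibroblast-like and 177 sustentacular-like cells. Transitioning-like cells carried chromaffin and sustentacular markers together. Orders and levels of genes by class leave out the cycling chromaffin-like cells, except where these are named. The sustentacular-like class had 6 of 7 sustentacular markers in at least 25% of its cells. Its leading genes began with *Scn7a*, *Col28a1* and *Kcna1*, and of its markers *Cdh19* was among the first 10. Its median of 1143 UMIs per cell was the lowest of all classes, where that of all cells that passed was 3567. Median UMIs per cell in the other classes ran from 1622 in immune-like to 5520 in cycling chromaffin-like cells. Levels are given as UMIs of the gene per 1000000 UMIs (CPM), summed over the cells of a class, with exact Poisson 95% intervals in parentheses. Ratios of levels have exact conditional binomial intervals. All intervals cover counting error only. In the sustentacular-like class the markers of myelinating Schwann cells summed to 1476 CPM, erythroid markers to 8581 CPM and chromaffin markers to 2978 CPM. The part of such other cells in the values of this class was not tested.

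The fibroblast-like class needs a caution that applies to each of its values. Its leading genes began with *Mgp* and *Tagln*, and its 5 fibroblast markers summed to 2661 CPM. It also carried the 8 endothelial markers at 3804 CPM, 50.8% of their level in endothelial-like cells, with all 8 detected and 7 of 8 in at least 25% of its cells. The 6 mural markers summed to 886 CPM and the chromaffin markers to 3342 CPM. Of its 88 cells, 24 had no UMI of an endothelial marker, and values in these are given below where they bear on a result. These 24 were shallower, with a median of 1128 UMIs against 2347.5 in the 64 others. Their macrophage markers summed to 1025 against 205 CPM and their sustentacular markers to 706 against 276 CPM. Fibroblast markers were also higher, at 5852 against 2038 CPM, and cortex markers lower, at 1207 against 2251 CPM. The part of such other cells in their values was not tested.

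**Figure D1:**
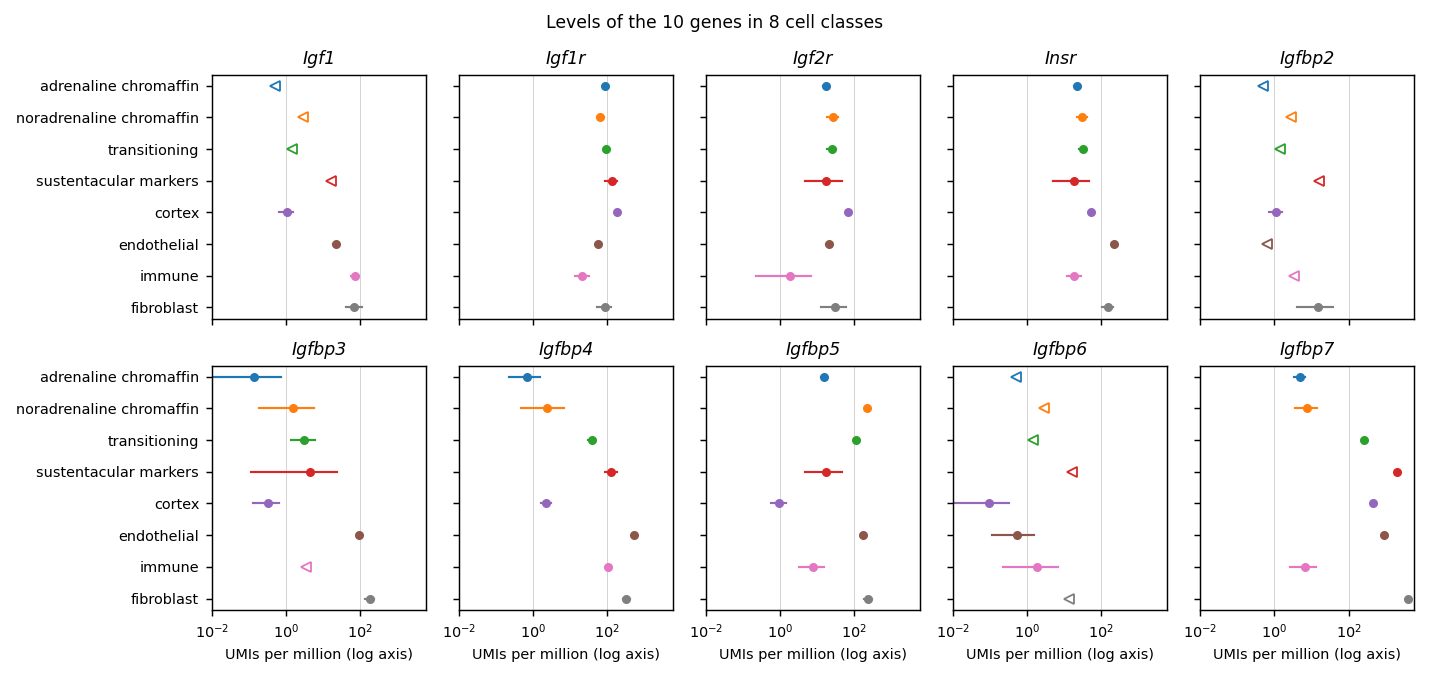
Levels of the 10 genes in 8 cell classes, in CPM on a log axis. Filled points are summed levels with exact 95% Poisson intervals, some of which run past the left edge, and open triangles are the upper bounds for classes with no UMI. *Igf1* has no UMI in the 4 medullary classes, and *Igf1r* has UMIs in all 8 classes.

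*Igf1* (chr10:87858265-87937042 of GRCm38, plus strand) was found in few classes. It stood in immune-like cells at 74.1 CPM (58.6 to 92.3, from 79 UMIs), in fibroblast-like cells at 70.7 CPM (42.6 to 110, from 19 UMIs) and, among endothelial-like cells, at 22.9 CPM (19.1 to 27.1, from 131 UMIs). The first and second of these levels overlapped, at a ratio of 1.05 (0.629 to 1.83), and both lay above the endothelial level. The 24 fibroblast-like cells without an endothelial UMI also had 6 *Igf1* UMIs, 137 CPM (50.1 to 297). Cortex-like cells had 1.05 CPM from 23 UMIs.

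No *Igf1* UMI was found in any medullary class. The 0 UMIs in 1673 adrenaline chromaffin-like cells allow, with 3 UMIs in the class as the limit for a count of 0 here and below, a level of up to 0.408 CPM and a share of up to 0.179% of cells with a UMI. In the sustentacular-like class, with far fewer UMIs in all, the same count allows up to 13.3 CPM. A level such as that of fibroblast-like cells would therefore have been seen there, but one of 10 CPM is not excluded by the count of 0.

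Within the immune-like cells *Igf1* was highest in the cluster led by *Ms4a7*, *C1qa* and *C1qc*, genes of tissue macrophages, at 137 CPM (96.6 to 189). The cluster led by *Cd74*, *H2-Aa* and *H2-Eb1*, genes of antigen presentation, had 62.4 CPM (43.7 to 86.4), and the ratio of the first to the second was 2.20 (1.35 to 3.58). The cluster led by *Plac8*, *Ptprc* and *Cd52* had none in 49 cells, which allows up to 42 CPM. The share of immune-like cells with an *Igf1* UMI was 10.2% (7.82% to 13.0%) against 0.677% in cortex-like cells, whose median depth was 5179.5 UMIs against 1622. With each cell thinned to 1000 UMIs, leaving out 73 immune-like and 2 cortex-like cells with fewer, the shares were 6.84% and 0.118%.

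The receptors were spread over all classes, and their order differed from gene to gene. *Igf1r* (chr7:67952827-68233668, plus strand) was present in every class. Its level was 186 CPM (181 to 192) in cortex-like cells, where 57.2% of cells had a UMI, and 133 CPM (89.4 to 189) in the sustentacular-like class. It was 92.7 CPM in transitioning-like, 85.9 CPM in adrenaline chromaffin-like, 85.6 CPM in fibroblast-like, 65.4 CPM in noradrenaline chromaffin-like and 58.1 CPM in endothelial-like cells. Immune-like cells had the lowest level, 21.6 CPM (13.7 to 32.4). Every pair of neighbours in this order overlapped in their intervals except the last, from endothelial-like to immune-like cells.

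*Igf2r* (chr17:12682406-12769664, minus strand) was likewise highest in cortex-like cells, at 67.1 CPM (63.7 to 70.6), 2.25 times (1.14 to 5.23) the 29.8 CPM of fibroblast-like cells, a level that rests on 8 UMIs. The other classes apart from immune-like cells lay between 16.9 and 26.2 CPM with overlapping intervals. Immune-like cells had 2 UMIs, or 1.88 CPM (0.227 to 6.77). Over the 25 clusters the log2 levels of *Igf1r* and *Igf2r* had a Pearson correlation of 0.88, as a description of clusters that share 1 library.

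*Insr* (chr8:3122061-3279617, minus strand) had another order. Endothelial-like cells had 225 CPM (213 to 238), and 34.6% of them had a UMI. Fibroblast-like cells had 149 CPM (106 to 203), cortex-like cells 51.1 CPM (48.1 to 54.1), and the remaining classes 17.7 to 31.5 CPM. The ratio of endothelial-like to fibroblast-like cells was 1.51 (1.10 to 2.13), and the fibroblast-like cells without an endothelial UMI had 137 CPM from 6 UMIs.

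The binding protein genes were far more uneven. *Igfbp5* (chr1:72857932-72874884, minus strand) faces *Igfbp2* (chr1:72824503-72852474, plus strand) across 5457 bases. *Igfbp3* (chr11:7206086-7213923, minus strand) lies 3539 bases from *Igfbp1*, which had no UMI in any class, with cycling chromaffin-like cells not examined. *Igfbp4* (chr11:99041244-99054392, plus strand) lies elsewhere on the same chromosome, and *Igfbp7* (chr5:77349240-77408041, minus strand) overlaps the oppositely transcribed *Polr2b* by 85 bases at its 3′ end, where reads could be told apart only by strand. *Igfbp6* is at chr15:102144362-102149511, plus strand. The 250 bases upstream of the start of *Igfbp3*, *Igfbp4*, *Igfbp5* and *Igfbp7* are shown because the class differences below turn on these 4 genes (RefSeq, GRCm38.p6, each 5′ to 3′ on the strand of its gene). They are chr11:7213924-7214173 for *Igfbp3*, chr11:99040994-99041243 for *Igfbp4*, chr1:72874866-72875115 for *Igfbp5* and chr5:77408046-77408295 for *Igfbp7*. Capitals mark matches on either strand to GGGCGG, the GC box. They also mark matches on either strand to TATAAA, the TATA box, and its variants TATATA and, as a last word, TTTAAA.
Igfbp3: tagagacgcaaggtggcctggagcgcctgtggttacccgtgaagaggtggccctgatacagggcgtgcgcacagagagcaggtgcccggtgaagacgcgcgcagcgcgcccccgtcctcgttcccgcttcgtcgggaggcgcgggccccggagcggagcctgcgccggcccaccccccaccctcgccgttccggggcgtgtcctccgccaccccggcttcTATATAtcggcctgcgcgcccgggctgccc
Igfbp4: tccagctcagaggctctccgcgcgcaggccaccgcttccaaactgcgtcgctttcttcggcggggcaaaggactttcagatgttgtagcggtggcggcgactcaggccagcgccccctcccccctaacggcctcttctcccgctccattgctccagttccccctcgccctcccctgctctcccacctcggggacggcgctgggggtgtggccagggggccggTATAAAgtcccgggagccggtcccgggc
Igfbp5: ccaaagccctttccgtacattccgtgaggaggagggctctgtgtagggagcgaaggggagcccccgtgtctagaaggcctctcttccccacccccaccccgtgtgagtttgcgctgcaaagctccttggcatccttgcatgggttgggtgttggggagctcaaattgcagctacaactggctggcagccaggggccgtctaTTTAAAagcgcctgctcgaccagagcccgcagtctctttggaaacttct
Igfbp7: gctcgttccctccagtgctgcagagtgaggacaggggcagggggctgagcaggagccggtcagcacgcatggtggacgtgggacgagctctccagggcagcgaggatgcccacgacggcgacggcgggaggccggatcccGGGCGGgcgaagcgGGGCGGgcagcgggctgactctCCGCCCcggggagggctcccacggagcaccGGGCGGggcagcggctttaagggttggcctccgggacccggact

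The window of *Igfbp7* held GGGCGG at 4 places and none of the 3 TATA-like words. The windows of *Igfbp3*, *Igfbp4* and *Igfbp5* held no GGGCGG and 1 such word each, TATATA starting 30 bases before the start of *Igfbp3*, TATAAA starting 28 bases before that of *Igfbp4* and TTTAAA starting 49 bases before that of *Igfbp5*. Among 32851 windows of this length, 32.7% held GGGCGG, 12.4% TATAAA, 5.25% TATATA and 12.1% TTTAAA. These are matches of letters, and no binding was measured.

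*Igfbp5* separated the 2 kinds of chromaffin cell. In the noradrenaline chromaffin-like class it stood at 222 CPM (197 to 249, from 288 UMIs). The adrenaline chromaffin-like class had 15.4 CPM (12.7 to 18.5, from 113 UMIs), a ratio of 14.4 (11.6 to 18.1). The share of cells with a UMI was 34.0% (29.3% to 39.1%) against 5.68% (4.62% to 6.90%), and after thinning to 1000 UMIs, which left out 22 and 12 shallower cells, it was 12.9% against 1.14%. The share in cortex-like cells, which had the lowest level of all classes at 0.914 CPM (0.558 to 1.41), was 0.412%.

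The same order held among transitioning-like cells. Those without *Pnmt*, the enzyme that makes adrenaline, in most cells had *Igfbp5* at 144 CPM (127 to 162), and those with it at 29.98 CPM (18.3 to 46.3), a ratio of 4.79 (3.04 to 7.96). The transitioning noradrenaline-like level was 0.647 times (0.547 to 0.767) that of noradrenaline chromaffin-like cells. The transitioning adrenaline-like level was 1.95 times (1.15 to 3.16) that of adrenaline chromaffin-like cells. The sustentacular-like class had only 4 UMIs, 17.7 CPM (4.82 to 45.3).

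**Figure D2:**
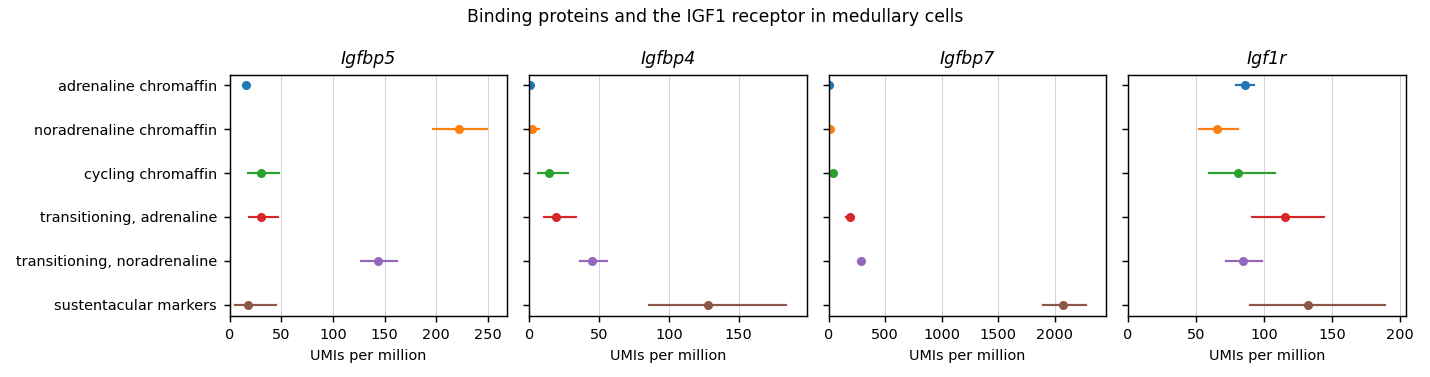
Levels of *Igfbp5*, *Igfbp4*, *Igfbp7* and *Igf1r* in 6 medullary groups, in CPM with exact 95% Poisson intervals. *Igfbp5* is high in both noradrenaline groups, *Igfbp4* and *Igfbp7* are highest in the sustentacular-like class, and the *Igf1r* intervals mostly overlap.

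*Igfbp5* was not restricted to the medulla. It stood at 234 CPM (180 to 300) in fibroblast-like cells, which overlapped the noradrenaline chromaffin-like level (ratio 1.06, 0.792 to 1.39). This order turned to 0.517 with each cell named from its own markers and to 0.740 with the mean over cells, and the 24 fibroblast-like cells without an endothelial UMI had 137 CPM (50.1 to 297) from 6 UMIs. Endothelial-like cells had 172 CPM (162 to 183). Noradrenaline chromaffin-like cells exceeded endothelial-like cells 1.29-fold (1.13 to 1.47). The endothelial-like class includes 490 cycling cells, which had less *Igfbp5* than its other cells, whereas cycling chromaffin-like cells were kept apart. Its non-cycling clusters, given below, lay nearer to or above the noradrenaline chromaffin-like level. The 8 endothelial markers in noradrenaline chromaffin-like cells summed to 23.1 CPM, 0.308% of the endothelial-like level. The part of endothelial cells in their *Igfbp5* was not tested. In immune-like cells all 8 *Igfbp5* UMIs came from 1 cell.

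*Igfbp7* had the highest counts of the set, 17222 UMIs over the 8 classes. Fibroblast-like cells had 3945 CPM (3711 to 4190), with a UMI in 98.9% of cells, and the sustentacular-like class 2077 CPM (1893 to 2273), with a UMI in 86.4%. Endothelial-like cells had 893 CPM (869 to 918), cortex-like cells 451 CPM (442 to 460) and transitioning-like cells 257 CPM (238 to 278), and no neighbours in this order overlapped. Noradrenaline chromaffin-like cells had 7.70 CPM (3.69 to 14.2), immune-like cells 6.56 CPM (2.64 to 13.5) and adrenaline chromaffin-like cells 4.76 CPM (3.31 to 6.62).

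The intervals of these 3 levels overlapped. A UMI was found in 1.85% of adrenaline and 2.64% of noradrenaline chromaffin-like and in 1.23% of immune-like cells, at median depths of 3163, 2650 and 1622 UMIs. The 24 fibroblast-like cells without an endothelial UMI had 5783 CPM, above the whole class.

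The sustentacular-like class stood 399-fold (294 to 555) above chromaffin-like cells for *Igfbp7*. Its 5 fibroblast markers summed to 45.8% of the fibroblast-like level. *Col1a1* stood at 411 CPM and *Col1a2* at 809 CPM, against 506 and 1094 CPM in fibroblast-like cells, and the matrix genes *Col3a1* and *Postn* were among its 10 leading genes. No UMI was found of *Dcn*, *Lum* or *Pdgfra*, which stood at 856, 141 and 63.3 CPM in fibroblast-like cells. The part of other cells in its *Igfbp7* was not tested. Its endothelial markers summed to 0.236% of the endothelial-like level. Transitioning-like cells had *Igfbp7* at 12.4% of the level of the sustentacular-like class, beside 16.4% for the summed sustentacular markers and 54.9% of the chromaffin-like level for the chromaffin markers, and 2 of the 417 were called as doublets. The 2 transitioning groups had 282 CPM without and 187 CPM with *Pnmt*, a ratio of 1.5 (1.24 to 1.84). Cycling chromaffin-like cells had 37.1 CPM (22.9 to 56.6) from 21 UMIs in 9 of 89 cells, beside sustentacular markers at 98.8 CPM against 16.2 CPM in chromaffin-like cells, and the part of these in the value was not tested.

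Within the cortex *Igfbp7* followed the clusters closely. The cluster led by *Ly6d*, *Wnt4* and *Aebp1* had 1364 CPM (1323 to 1406), that led by *Ecrg4*, *Vsnl1* and *Ly6d* 817 CPM (746 to 893), and that led by *Cyp11b1*, the last enzyme of glucocorticoid synthesis, 771 CPM (745 to 798). *Wnt4* is known from the outer cortex, but at most 2 of 5 outer cortex markers passed 25% of cells in any cluster, so no outer zone was named. The cluster led by *Akr1d1* had 338 CPM, and the cycling cortex-like cells 259 CPM.

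The X-zone is the inner cortical layer of the young mouse, and its 3 markers here were chosen for the inner cortex or X-zone. Non-cycling clusters with all 3 of its markers in at least 25% of cells stood far lower. The one led by *C3* and *Apoc1* had 98.9 CPM, and those led by *Spp1* and *Pik3c2g* had 26.4 CPM (18.5 to 36.6) and 12.2 CPM (8.32 to 17.4). Not counted among these was the cluster led by *Akr1d1*, with 2 of the 3 markers in at least 25% of its 421 cells. The 3 markers summed to 6324 CPM in the *C3* cluster, 14978 and 13959 CPM in the *Spp1* clusters and 2720 CPM in the *Akr1d1* cluster. The name X-zone-like rests on this marker list alone, and whether the *C3* cluster belongs to the X-zone was not tested. The cycling cortex-like cells, also not counted, had all 3 markers in at least 25% of cells and more *Igfbp7* than any counted cluster. Together the 1315 X-zone-like cells had 14.2-fold (13.0 to 15.4) less *Igfbp7* than the 1701 other non-cycling cortex-like cells, which included the *Akr1d1* cluster. *Igf1r* showed no such step, at a ratio of 0.982 (0.919 to 1.05), nor did *Igf2r* at 0.875 (0.781 to 0.981) and *Insr* at 0.826 (0.725 to 0.940). Of the 6 members with enough UMIs, 3 passed the 2-fold call as lower in X-zone-like cells, where 14.7% of all genes did, and 0 as higher, where 5.70% did. Besides *Igfbp7* these were *Igf1*, with 1 UMI against 19, and *Igfbp4*, with 3 against 27. Markers of other lineages were also lower in X-zone-like cells, at 5.24 against 22.1 CPM for the 7 macrophage markers, 9.82 against 23.9 CPM for the endothelial and 0.655 against 19.1 CPM for the fibroblast markers, and 1 against 37 cells were called as doublets. The part of these in the low counts of *Igf1* and *Igfbp4* was not tested. The clusters were made from variable genes that could include members.

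**Figure D3:**
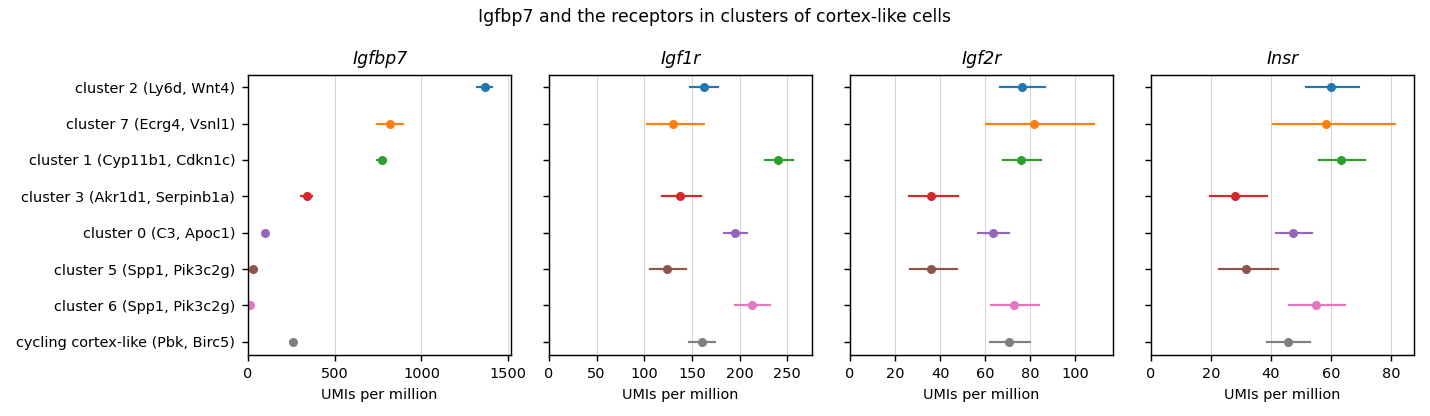
*Igfbp7* and the 3 receptors in 8 clusters of cortex-like cells, in CPM with exact 95% Poisson intervals, each cluster given with its 2 leading genes. *Igfbp7* runs from 1364 CPM to 12.2 CPM, while *Igf1r* stays between 124 and 241 CPM.

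*Igfbp4* was highest in endothelial-like cells, at 534 CPM (515 to 553), with a UMI in 63.8% of cells. Fibroblast-like cells had 331 CPM (266 to 408), at a ratio of endothelial-like to fibroblast-like of 1.61 (1.31 to 2.01), but the 24 of them without an endothelial UMI had 114 CPM from 5 UMIs. The sustentacular-like class had 128 CPM (85.8 to 184) and immune-like cells 106 CPM (87.3 to 127), which overlapped. Transitioning-like cells had 38.5 CPM (31.3 to 46.9), and cortex-like and both chromaffin-like classes at most 2.31 CPM.

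The endothelial markers in the sustentacular-like class and in immune-like cells stood at 0.236% and 0.613% of the endothelial-like level, and *Igfbp4* at 24.0% and 19.8%. The part of endothelial cells in these *Igfbp4* levels was not tested. In immune-like cells *Igfbp4* had the same order as *Igf1*, with 159 CPM (115 to 215) in the cluster led by *Ms4a7* and 85.0 CPM (62.9 to 112) in that led by *Cd74*, a ratio of 1.88 (1.22 to 2.89). Transitioning-like cells held 30.1% of the level of the sustentacular-like class, with 45.2 CPM in those without *Pnmt* and 19.5 CPM in those with it, a ratio of 2.32 (1.29 to 4.53).

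*Igfbp3*, the main carrier of IGFs in the circulation, was counted in few places. Fibroblast-like cells had 186 CPM (138 to 245, from 50 UMIs) and endothelial-like cells 91.8 CPM (84.1 to 100, from 526 UMIs), a ratio of 2.03 (1.49 to 2.71). The fibroblast-like cells without an endothelial UMI had 182 CPM from 8 UMIs. All other classes had at most 4.42 CPM, and immune-like cells had none, which allows up to 2.81 CPM.

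Both remaining members were close to absent. *Igfbp2* had 24 UMIs in 24 cortex-like cells, 1.10 CPM (0.703 to 1.63), 4 UMIs in 3 fibroblast-like cells and none in the other classes. *Igfbp6* had 7 UMIs over all 8 classes, in endothelial-like, immune-like and cortex-like cells, and its order of levels is not interpretable at this depth.

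The endothelial-like cells fell into 4 clusters that differed in *Igfbp3* and *Igfbp5* more than in *Igfbp4* or *Igfbp7*. *Igfbp3* stood at 107 CPM (94.9 to 120) in the cluster led by *Ehd3*, *Kdr* and *Cldn5*, at 166 CPM (140 to 195) in that led by *Gpihbp1*, *Ramp2* and *Ly6c1*, and at 22.0 CPM (9.51 to 43.4) in that led by *Lyve1* and *Mgp*. *Igfbp5* stood at 200 CPM and 209 CPM in the first and second and was highest in the *Lyve1* cluster, at 300.2 CPM (246 to 362). The *Gpihbp1* cluster had a median of 1139 UMIs per cell, against 2811 in the *Ehd3* cluster, and erythroid markers at 15058 CPM against 733 CPM, and the part of these in the differences was not tested. *Igfbp4* lay between 484 and 617 CPM in all 4 clusters.

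Cycling endothelial-like cells had less of both genes than the non-cycling ones. *Igfbp3* was 2.33-fold (1.85 to 2.97) lower and *Igfbp5* 2.40-fold (2.03 to 2.86) lower. *Igfbp4* was 1.15-fold (1.06 to 1.25), *Igfbp7* 1.28-fold (1.2 to 1.36) and *Insr* 1.43-fold (1.26 to 1.63) lower, beside endothelial markers at 6503 CPM in cycling against 7958 CPM in non-cycling cells. Of 8 members with enough UMIs, 2 passed the 2-fold call as lower, where 3.30% of all genes did, and 0 as higher, where 4.79% did.

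**Figure D4:**
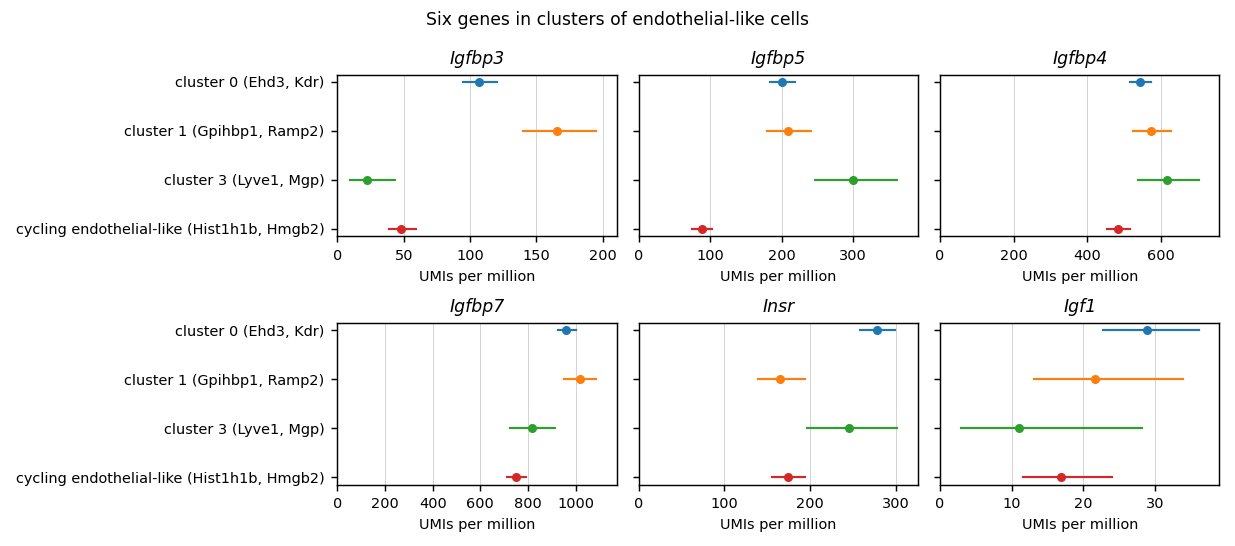
Levels of 6 genes in 4 clusters of endothelial-like cells, in CPM with exact 95% Poisson intervals, each cluster given with its 2 leading genes. *Igfbp3* is lowest in the *Lyve1* cluster and *Igfbp5* highest there, and both are lower in cycling cells than in the *Ehd3* and *Gpihbp1* clusters.

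The 4 main comparisons between classes were run over the whole matrix. A gene was called where its levels differed at least 2-fold and it had at least 20 UMIs in both groups together, with a count of 0 taken as 3 UMIs. Between cortex-like and chromaffin-like cells 8 members could be called, of which 7 were higher in the cortex, where 21.8% of all 13789 genes were, and 1 was lower, where 25.6% were. The receptors *Igf1r*, *Igf2r* and *Insr* were 2.25-fold (2.08 to 2.44), 3.68-fold (3.12 to 4.36) and 2.25-fold (1.94 to 2.64) higher, and *Igfbp7* 86.7-fold (64.7 to 119) higher. *Igf1* and *Igfbp2*, with no UMI in chromaffin-like cells, were at least 3.03-fold and 3.16-fold higher with 0 taken as 3 UMIs in the group (exact lower limits 2.27 and 2.38), and *Igfbp4* 2.42-fold (1.14 to 5.92), all at 2.24 CPM or less. *Igfbp4* passed in only 6 of 11 other settings of the processing, and the endothelial markers in cortex-like cells stood at 0.383% of the endothelial-like level, where the *Igfbp4* level of endothelial-like cells was 534 CPM. Their part in the cortical *Igfbp4* was not tested. *Igfbp5* was 50.7-fold (32.4 to 83.9) lower, and its cortex-like level was higher with the left-out mixed cells counted, as given below. The median log2 ratio was 1.44 over the 8 members and -0.05 over all genes.

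Between noradrenaline and adrenaline chromaffin-like cells 5 members could be called. *Igfbp5* was the 1 that passed as higher in noradrenaline cells, where 6.14% of 11572 genes did, and 0 passed as lower, where 9.00% did. *Igf1r* stood at 0.762 times (0.600 to 0.956) and *Igf2r* at 1.55 times (1.03 to 2.28) the adrenaline level, both inside the 2-fold limits. *Insr*, at 1.41 times (0.964 to 2.01), and *Igfbp7*, at 1.62 times (0.714 to 3.34), could not be told from equal levels at this depth.

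Between the sustentacular-like class and chromaffin-like cells 6 members could be called, of which 2 were higher, where 15.1% of all genes were, and 1 was lower, where 16.1% were. These were *Igfbp7* and *Igfbp4*, at 399-fold and 139-fold (61.8 to 351) higher, and *Igfbp5*, at 2.62-fold (1.02 to 9.67) lower from 4 UMIs. The chromaffin-like level of *Igfbp5* joins the high noradrenaline and low adrenaline cells. Against adrenaline chromaffin-like cells alone the sustentacular-like level was not lower, and their intervals overlapped. *Igf1r* was 1.60-fold (1.07 to 2.30) higher. In transitioning-like cells *Igfbp4*, *Igfbp5* and *Igfbp7* were higher than in chromaffin-like cells, 41.7-fold, 2.46-fold and 49.5-fold, which is 3 of 6 members where 7.66% of all genes passed, and 0 members were lower, where 3.26% were. The *Igfbp5* ratio compares unlike mixtures, as 326 of 417 transitioning-like cells were noradrenaline-like, against 379 of 2052 chromaffin-like cells. Within each kind, as given above, *Igfbp5* did not pass as higher. It was lower in transitioning noradrenaline-like cells and less than 2-fold higher in transitioning adrenaline-like cells.

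Between endothelial-like cells and chromaffin-like with cortex-like cells 9 members could be called, of which 6 were higher, where 18.6% of all genes were, and 2 lower, where 27.7% were. *Igfbp4* was 286-fold (220 to 379), *Igfbp3* 280-fold (151 to 588), *Igf1* 30.3-fold (19.4 to 49.5), *Igfbp5* 12.5-fold (11.1 to 14), *Insr* 5.24-fold (4.85 to 5.66) and *Igfbp7* 2.75-fold (2.66 to 2.85) higher. *Igf1r* and *Igf2r* were 2.70-fold (2.42 to 3.03) and 2.63-fold (2.18 to 3.2) lower. Cortex-like cells gave 21877693 of the 30531688 UMIs of the joined group, so these ratios lean on the cortex. Those of *Igfbp3*, *Igfbp4* and *Igfbp5* also lean on leaving out mixed cortical cells, with which their cortex-like levels were higher, as given below. Endothelial-like *Igf1r* was less than 2-fold below each chromaffin-like class, and *Igf2r* lay between these classes with overlapping intervals. *Igfbp5* was higher in noradrenaline chromaffin-like than in all endothelial-like cells together, which include the cycling ones with less of it. *Igfbp7* was less than 2-fold above cortex-like cells alone. The cortex-like cluster led by *Ly6d*, *Wnt4* and *Aebp1* had more *Igfbp7* than endothelial-like cells, and X-zone-like cells had less, as given above. The median log2 ratio was 2.39 over the members and -0.12 over all genes.

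The low cortical levels of the endothelial genes depended on which cells were counted. When the cortical and immune cells were clustered a second time, 402 cortical and 57 immune cells fell into clusters that also carried markers of another lineage and were left out, as were 247 medullary cells. Scrublet, which scores each cell against simulated doublets, called 31.1%, 82.5% and 61.9% of these as doublets, against 1.24%, 0.702% and 0.110% of the cells kept. The left-out cortical cells had *Igfbp3* at 53.1 CPM, *Igfbp4* at 130 CPM and *Igfbp5* at 83.1 CPM, or 57.9%, 24.4% and 48.3% of the endothelial-like level, and their 8 endothelial markers stood at 23.6%. Counted together with them, the cortex-like level of *Igfbp3* was 6.81 CPM in place of 0.320 CPM, that of *Igfbp4* 18.0 CPM in place of 2.24 CPM and that of *Igfbp5* 11 CPM in place of 0.914 CPM. *Igfbp7* moved only from 451 CPM to 509 CPM. The left-out immune cells likewise had *Igfbp3* at 124 CPM, where the immune-like cells kept had none.

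**Figure D5:**
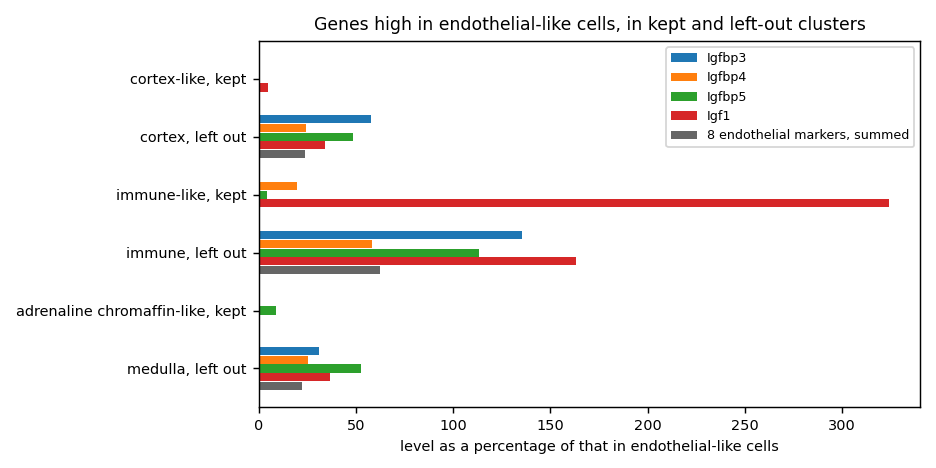
Levels of *Igfbp3*, *Igfbp4*, *Igfbp5* and *Igf1* as percentages of their endothelial-like level, beside the summed level of 8 endothelial markers, in clusters kept and left out. Bars start at 0. The left-out cells carry 22.3% to 62.6% of the endothelial marker level, and the kept ones at most 0.613%.

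Other genes of the pathway were taken from a list of 28. *Igf2*, the second ligand, had 80 UMIs in adrenaline chromaffin-like cells, 10.9 CPM (8.62 to 13.5) in 4.0% of cells, none in noradrenaline chromaffin-like cells and 12 UMIs in transitioning-like cells. *Insrr*, an orphan relative of the insulin receptor, had the same pattern, with 46 UMIs in adrenaline and none in noradrenaline chromaffin-like cells. Between noradrenaline and adrenaline chromaffin-like cells 3 of 19 genes of the list that could be called were higher and 3 lower, where 6.14% and 9.00% of all genes were. The higher ones were *Socs2* and *Cish*, feedback inhibitors of growth hormone signalling, at 2.37-fold (1.95 to 2.88) and 8.49-fold (3.19 to 24.0), and *Pik3r1*, the regulatory subunit of PI3 kinase, at 3.80-fold (2.55 to 5.63). *Igf2* and *Insrr*, with no UMI in noradrenaline cells, were at least 4.71-fold and 2.71-fold lower with 0 taken as 3 UMIs in the class (exact lower limits 3.74 and 2.12), and *Stat5a* was 3.77-fold (1.68 to 10.5) lower. The ratio of *Cish* rests on 12 against 8 UMIs and that of *Stat5a* on 6 UMIs in noradrenaline cells.

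Of the 3 listed enzymes that cut IGF binding proteins, only *Htra1* was highest in the sustentacular-like class without overlap of intervals, although other classes held more of its UMIs. *Htra1*, a secreted serine protease known to cleave several binding proteins, stood at 548 CPM (456 to 653, from 124 UMIs) there, with a UMI in 48.0% of cells, and at 79.4 CPM (from 204 UMIs) in transitioning-like, 33.5 CPM in fibroblast-like, 8.50 CPM in cortex-like and at most 1.74 CPM in the other classes. *Pappa*, a metalloprotease of IGFBP4, stood at 70.7 CPM (40.4 to 115) from 16 UMIs in the sustentacular-like class. This overlapped its 29.8 CPM (12.9 to 58.7) from 8 UMIs in fibroblast-like cells. Transitioning-like cells had 10.1 CPM from 26 UMIs, and elsewhere *Pappa* had at most 2 UMIs in a class. *Pappa2* had 1 UMI each in the sustentacular-like and fibroblast-like classes. Of the 20 listed genes that could be called against chromaffin-like cells, 5 passed as higher (*Htra1*, *Gab1*, *Pik3r1*, *Foxo1* and *Jak2*), where 15.1% of all genes did, and 3 as lower (*Irs2*, *Shc1* and *Pik3ca*), where 16.1% did. The ratio of *Jak2* rests on 6 UMIs and, at 2.34 (0.839 to 5.28), could not be told from equal levels. The 3 lower calls rest on 0, 5 and 6 UMIs in the sustentacular-like class, and the interval of *Pik3ca*, at 0.448 (0.164 to 0.982), nearly reached equal levels. *Gab1*, an adaptor of receptor tyrosine kinases, was 36.6-fold (23.6 to 56.5) higher.

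In cortex-like against chromaffin-like cells 5 of 21 listed genes were higher and 7 lower, where 21.8% and 25.6% of all genes were. Those higher were *Htra1*, *Pik3r1*, *Akt1*, *Ghr* and *Stat5a*. Those lower were *Igf2*, *Irs2*, *Grb10*, *Shc1*, *Socs2*, *Cish* and *Insrr*. *Pik3r1* was 13.5-fold (11.2 to 16.5) and *Ghr*, the growth hormone receptor, 8.08-fold (4.54 to 15.8) higher. Among adaptors, *Irs2*, *Grb10* and *Shc1* were 3.70-fold (3.09 to 4.44), 3.30-fold (3.01 to 3.62) and 4.27-fold (3.76 to 4.86) lower. The adaptors *Gab1* and *Irs1* did not pass, at 1.76 times (1.28 to 2.48) and 0.874 times (0.530 to 1.48) the chromaffin-like level. In endothelial-like cells 5 of 22 were higher and 11 lower than in chromaffin-like and cortex-like cells together, where 18.6% and 27.7% of all genes were. Those higher were *Stc1*, *Grb10*, *Gab1*, *Foxo1* and *Cish*. Those lower were *Igf2*, *Htra1*, *Irs1*, *Irs2*, *Pik3cb*, *Pik3r1*, *Akt2*, *Stat5a*, *Stat5b*, *Socs2* and *Insrr*. *Grb10*, an inhibitory adaptor of the insulin and IGF1 receptors, was 5.38-fold (5.05 to 5.74) and the transcription factor *Foxo1* 3.98-fold (3.57 to 4.43) higher. *Irs2* was 47.9-fold lower, a ratio that rests on 2 endothelial-like UMIs (13.2 to 396). *Igfals* and *Irs4* had 1 UMI each, in adrenaline chromaffin-like cells.

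The genes with the pattern most like each member were found by Pearson correlation of log2(CPM + 10) over the 25 clusters, among 4320 genes. The clusters share 1 library and differ in depth, so these values describe likeness alone. *Igf1* was most like *Mertk*, *Mrc1* and *Pf4* (r = 0.94, 0.93 and 0.91). *Igfbp3* was most like *Aplnr*, *Btnl9* and *Efnb2* (0.96, 0.96 and 0.95), *Igfbp4* like *Emp1*, *Notch1* and *Tspan14* (0.97, 0.96 and 0.95), and *Insr* like *F2r*, *Ptprg* and *Cdc42bpb* (0.94, 0.92 and 0.92). *Igfbp5* was most like *Tm4sf1*, *Cd200* and *Cyyr1* (0.92, 0.90 and 0.88), *Igfbp7* like *Gpx8*, *Limch1* and *Col4a1* (0.95, 0.95 and 0.94), and *Igf1r* like *Skp1a*, *Nfe2l1* and *Ltbp3* (0.92, 0.92 and 0.90). *Igf2r*, *Igfbp2* and *Igfbp6* reached 100 CPM in no cluster and were not compared.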

How the data were processed

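The library was made with the Chromium Single Cell 3′ kit, per the labels. The deposited matrix holds whole-number UMI counts, not normalized. Per the submitters' processing notes, the authors ran Cell Ranger 4.0.0 on mm10. The strand setting of the counting is not given in the sources used here. mm10 is GRCm38, so gene positions were read from GENCODE M21 of that build and upstream sequences from RefSeq GRCm38.p6, which had an entry for 9 of the 10 genes. Depth per barcode ran from 500 to 33809 UMIs. No barcode occurred more than 1 time. Whether doublets had been removed before deposit is not given in the sources used here.

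Cells with 500 to 5000 genes and at most 20% mitochondrial UMIs were kept, following the study's methods. They were clustered on 10 principal components of 2000 variable genes at Louvain resolution 0.4, in Seurat 5.3.0 under R 4.3.3. A cluster took the name of a list when 3 or more of its markers each had UMIs in 50% or more of the cells (25% for the sustentacular, cycling and X-zone lists). Chromaffin clusters took the name adrenaline when *Pnmt* passed 50%. Medullary, cortical, endothelial and immune cells were each clustered again, and clusters with markers of another lineage were left out until none remained. This step was chosen after seeing the data for cortical and immune cells. In all, 706 cells were left out and 493 had no class. Scrublet at an expected rate of 8% called 707 doublets, which were kept in the main values. Classes rebuilt in this way may differ from those of the study.

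UMIs were summed per class and divided by the class total. The lists of members, markers and pathway genes were chosen with earlier results of these data known. All 10 members are named, with listed pathway genes past the 2-fold call or highest in their role. The 3 most correlated genes are named for each member compared, and leading genes for some of the clusters. Sums and intervals were computed with scipy 1.17.1, pandas 2.3.3 and numpy 2.4.6 under Python 3.11.15, and doublets with scanpy 1.11.5. The 2-fold call and the ratio interval were tested on simulated counts with 200 changed genes. Alternatives were a stricter cell filter, doublets removed, resolutions 0.2 and 0.8, 30 principal components, members left out of the variable features, each cell named from its own markers, mean CPM over cells, no minimum of UMIs and a 1.5-fold call. Keeping the mixed cortical and immune clusters was added after seeing the data.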

Additional observations from a re-analysis of the deposited data

How the results depend on the processing

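No paired analysis was possible because there is 1 library. The 8 counts of members called were recomputed under up to 11 alternatives each, and 80 of 86 values stayed within 1.5 times the reported count. An equal count can hold other genes. With each cell named from its own markers, *Igf2r* replaced *Igfbp5* as the member lower in the sustentacular-like class. In the same setting *Igfbp3* replaced *Igfbp4* among the 7 higher in cortex-like cells. The number higher in noradrenaline than adrenaline chromaffin-like cells was 2 with the stricter cell filter and 2 with each cell named from its own markers, where *Igfbp7* joined *Igfbp5*, 3 with no minimum of UMIs and 3 at 1.5-fold. *Igfbp5* was among them in 11 of 11. The number lower there was 1 at resolution 0.2, where *Igfbp7* passed the other way, so the direction of *Igfbp7* between these cells, which rests on 45 UMIs, is open to the clustering. The number lower in the sustentacular-like class was 0 with 30 principal components. *Igfbp5*, which passed there from 4 UMIs, was called in 8 of 10 alternatives. *Igfbp4* was called higher in cortex-like than chromaffin-like cells in only 6 of 11 alternatives, and *Igf1* in 10 of 11. *Igfbp7* and *Igfbp4* were called higher in the sustentacular-like class in 10 of 10.

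With the stricter filter of at least 1000 genes and 10% mitochondrial UMIs neither a sustentacular-like nor a fibroblast-like class was found, and at resolution 0.2 no fibroblast-like class was found, so the comparisons with them have no value there. For the 9 members other than *Igfbp6*, the ratio between the highest class and the next stayed inside its interval in 57 of 64 recomputations. The 7 others came from naming each cell by its own markers or from the mean over cells. For *Igfbp5* the ratio of fibroblast-like to noradrenaline chromaffin-like cells then fell from 1.06 to 0.517 and 0.740, so which class was higher changed with the setting. For *Insr* the ratio of endothelial-like to fibroblast-like cells ran from 1.38 to 3.79. The fibroblast-like and sustentacular-like classes held few UMIs, 268679 and 226325, which limits the precision of their values.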
